A study of Mus musculus with 4 samples.

Results

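The miR-148 and miR-152 family consists of mmu-miR-148a, mmu-miR-148b and mmu-miR-152, 3 of the 567 mouse miRNAs read on each array. Its signal was measured in B104 cells, a clonal neuroblastoma line, on 4 one-colour Agilent arrays that are selective for mature miRNAs. 2 arrays held RNA of mock-transfected control cells (con) and 2 held RNA of cells transfected with an siRNA duplex against RBM3 (si), used at 20 nM, both collected 48 h after transfection. The control was a mock transfection and not another siRNA, and RBM3, a cold-inducible RNA-binding protein, is an mRNA-encoded product that a miRNA array does not read, so its loss could not be checked here. The labels give mouse as the organism, while the study cites the line from work on rat cell lines. The names and probes are those of the mouse array design. The labels number the replicates 1 and 2 in each group without saying whether they were separate cultures. The 3 members were grouped by their names and shared seed, and were selected on this same knockdown contrast, with their signals on these arrays already known. Their values are therefore given as a description, without a test. With 2 arrays against 2, the smallest two-sided p that an exact permutation test can give is 0.333.

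A miRNA finds its target mRNAs mainly through its seed, the bases near its 5′ end, so members of a seed family can act on overlapping sets of messages. Each member is made from a hairpin precursor that Dicer cuts into a duplex, and the strand kept from these 3 hairpins is the one on the 3′ arm. In human cells miR-148a and miR-152 are known to repress DNMT1, the maintenance DNA methyltransferase. The question put to the arrays was how a loss of RBM3 changed the level of mature miRNAs.

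The mature sequences are shown because the members differ at so few bases that their probes could share signal. They come from RefSeq (GRCm38.p6), where all 3 members and the opposite strand of the miR-148a hairpin were matched, and the capitals mark the seed, bases 2 to 8 counted from the 5′ end.
mmu-miR-148a: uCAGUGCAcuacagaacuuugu
mmu-miR-148b: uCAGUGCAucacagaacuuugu
mmu-miR-152: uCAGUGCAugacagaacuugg

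Among 1738 mature mouse miRNAs in the RefSeq table these 3 were the entries with that seed. Counted from 1 at the 5′ end, with the base of the first-named miRNA first, mmu-miR-148a and mmu-miR-148b differed by C9U and U10C and were identical at 20 of 22 bases. mmu-miR-148b and mmu-miR-152 differed by C10G and U20G and were identical at 19 of the 21 bases compared, and mmu-miR-152 was 1 base shorter. mmu-miR-148a and mmu-miR-152 differed by C9U, U10G and U20G. Whether a probe of one member takes up signal from another was not tested.

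The hairpins are shown because they are the precursors on which Dicer acts. Capitals mark the mature miRNA that the array reads. In GRCm38.p6 they lie at chr6:51269812-51269910 on the minus strand, chr15:103285125-103285221 on the plus strand and chr11:96850393-96850465 on the plus strand, in the order printed.
Mir148a: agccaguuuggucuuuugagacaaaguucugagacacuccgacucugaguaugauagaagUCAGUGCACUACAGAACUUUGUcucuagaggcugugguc
Mir148b: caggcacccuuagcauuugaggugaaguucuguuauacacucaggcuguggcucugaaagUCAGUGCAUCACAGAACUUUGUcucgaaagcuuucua
Mir152: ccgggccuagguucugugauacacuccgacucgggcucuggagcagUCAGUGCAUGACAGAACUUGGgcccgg

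The Mir152 hairpin is the shortest of these entries, 73 bases against 99 for Mir148a and 97 for Mir148b, and the richest in G and C, at 61.6% against 45.5% and 45.4%. Between the 2 arms lie 16 bases in Mir148a, 13 in Mir148b and 15 in Mir152. By the gene table of the same assembly, Mir148b lies within the span of Copz1 and Mir152 within that of Copz2, a pair of paralogous genes for the zeta subunit of the COPI coat, which forms vesicles in the Golgi. Mir148a lies within the span of a predicted gene, Gm38821. Apart from these spanning genes, the nearest coding gene on one side of each hairpin is one of the Nfe2 family of transcription factors: Nfe2l3 beside Mir148a, Nfe2 beside Mir148b and Nfe2l1 beside Mir152. The table holds no exons, so intron and exon were not told apart here.

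On every array each member was read by 2 probes with 10 spots each. The value used below is the total signal, the sum that the scanning software forms over the probes of a miRNA, in arbitrary intensity units after subtraction of background, and it is not scaled between arrays. Its error is the one that the software gives for that sum, and it covers the spots of 1 array only.

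miR-152 gave a total signal of 428.6 ± 31.3 on con 1 and 501.7 ± 36.3 on con 2 (signal ± error of the array). On si 1 and si 2 it gave 62.2 ± 7.17 and 59.1 ± 6.55. The lowest control signal was 6.89 times the highest knockdown signal. How many of all miRNAs separate by group in this way was not counted. The mean of the control arrays was 465 ± 51.7 (SD, n = 2) and that of the knockdown arrays 60.7 ± 2.17 (SD, n = 2), so that 13.0% of the control signal was left. miR-152 was detected above background on all 4 arrays.

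miR-148b gave 98.7 ± 10.4 on con 1 and 114.8 ± 11.0 on con 2. It gave 26.3 ± 5.99 on si 1 and 25.7 ± 5.44 on si 2. miR-148b was detected on all 4 arrays. Its means were 107 ± 11.4 (SD, n = 2) and 26.0 ± 0.383 (SD, n = 2), so that 24.3% of the control signal was left, a larger share than for miR-152.

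miR-148a gave 55.3 ± 7.80 and 67.7 ± 7.78 on the control arrays, where it was detected. On the knockdown arrays it gave 8.81 ± 5.66 and 5.59 ± 5.05 and was detected on neither, and there its signal was 1.56 and 1.11 times its own error. What is left of miR-148a in knockdown cells therefore has no measured level, only a bound. Its own undetected signals would put the fall at 8.72-fold, from means of log2 signals without scaling, but that value is no bound, because other miRNAs with signals up to 21.2 and 19.2 were also undetected on these arrays. Set at those highest undetected signals, the fall was 3.03-fold.

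**Figure D1:**
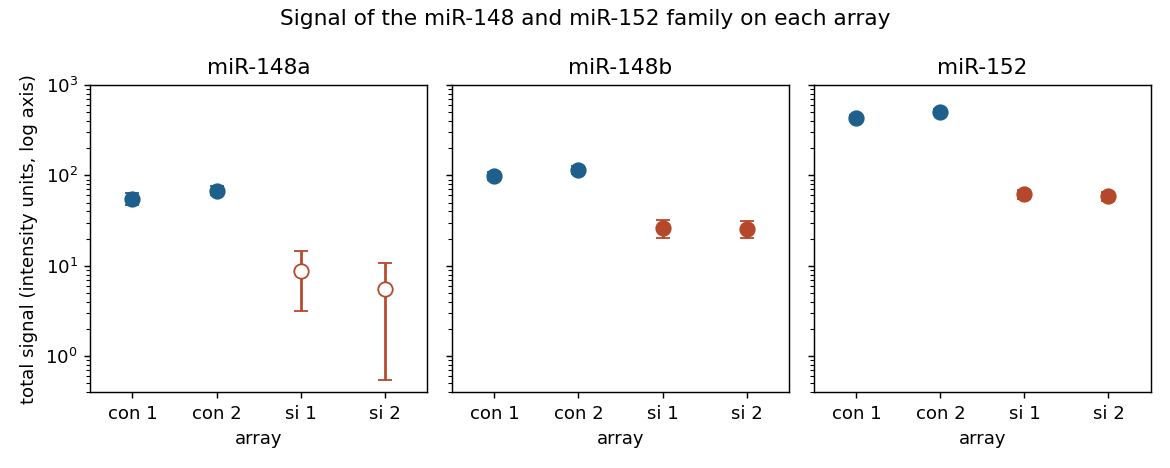
Total signal of each member in intensity units on a log axis, on the 2 control (con) and the 2 RBM3 knockdown (si) arrays; bars show the software's error of the signal, and open points were not detected. The knockdown signals of miR-148a, 8.81 and 5.59, are the open points. Lower signals after knockdown were common, with 77.1% of the 214 miRNAs tested called lower in the scale-normalized fit below.

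A loss of detection was not rare among the miRNAs. Of the 177 miRNAs detected on both control arrays, 41 were detected on neither knockdown array, or 23.2%, and miR-148a was the one member of 3 among them. A flag moves with how bright its array is. In control cells 177 and 190 mouse miRNAs were detected, against 147 and 162 in knockdown cells. For the 130 with a flag on all 4 arrays, the median signal was 375 and 422 in control against 94.2 and 92.4 in knockdown cells, and 5 positive control probes were dimmer after knockdown by a log2 change of -0.74 to -1.62. The part of this dimming in the signals of the family was not tested. A technical source, fewer cells and less RNA per cell cannot be told apart in such bulk RNA. All 4 arrays were on 1 slide with 1 scan time and none of the mouse spots was saturated. The neural miR-9 and miR-9* were detected on every array and miR-124 on none, each of 4 blood markers and the liver marker miR-122 was detected on no array, with summed signals of 8.95 to 13.9 and 6.71 to 15.9, and all 4 skeletal muscle markers were detected on every array, with summed signals of 10190 and 12740 in control and 4441 and 4592 in knockdown cells. The part of these markers in the values of the family was not tested.

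The opposite strand of the miR-148a hairpin, miR-148a*, also had probes on the array. Its signals were -10.3 and -7.91 in control and -9.54 and -12.4 in knockdown cells, and none of its 20 spots was well above background on any array. No change of miR-148a* could be read from these values, since both groups lay below background.

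Single spots and probes were read next. Of the 20 spots of miR-148a, 18 and 20 were well above background on the control arrays and 0 on each knockdown array. Of those of miR-148b, 16 and 19 were above it in control and 6 and 8 in knockdown cells. For miR-152 the counts were 20 and 20 in control and 19 and 20 after knockdown, so that this member was measured well on either side of the comparison.

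The 2 probes of miR-152 fell by much the same factor, 7.63-fold and 7.25-fold, in the mean processed signal of their spots without scaling. Of miR-148b, the second probe fell 3.98-fold. All spots of its first probe lay below the threshold for a clear signal on the knockdown arrays, with means of 10.2 ± 4.08 and 8.52 ± 4.26 (SD over 10 spots), against 34.0 ± 6.44 and 39.7 ± 9.09 in control cells, and no fold is given for it. Nor is one given for the probes of miR-148a, whose knockdown spots lay around the background, at 6.19 ± 5.74 and 5.38 ± 5.58 for the first probe and 6.11 ± 4.97 and 3.05 ± 5.19 for the second. Spots of 1 array share their RNA and are not replicates of the condition.

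**Figure D2:**
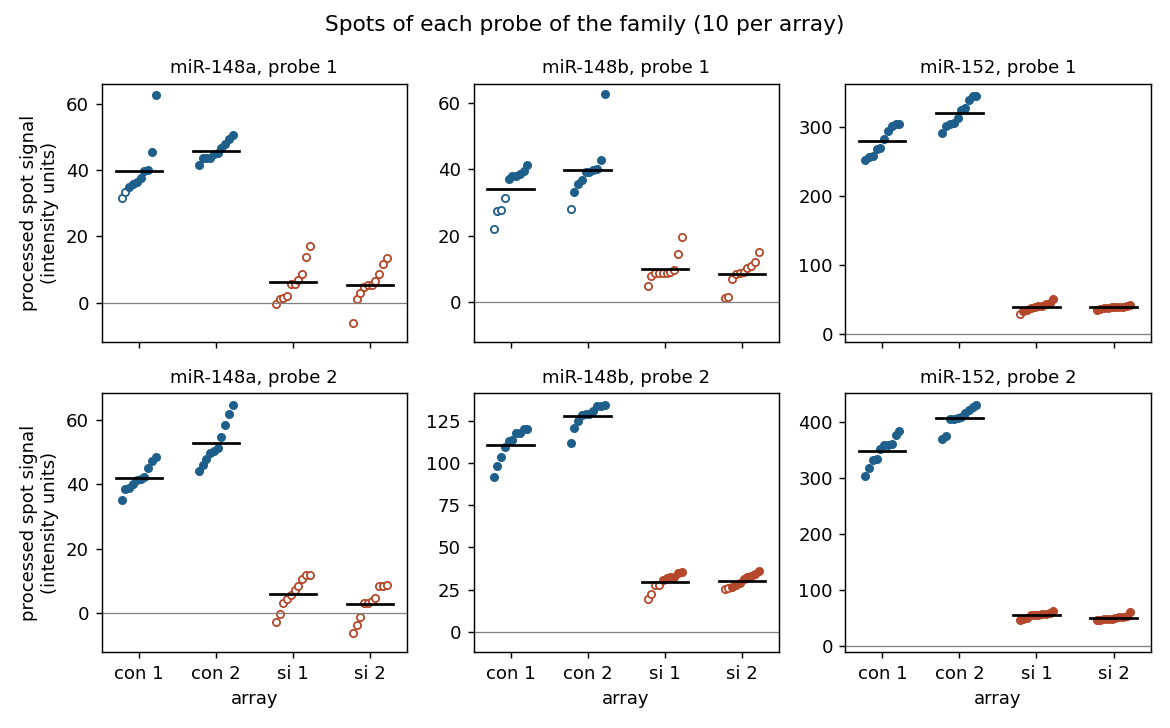
Background-subtracted signal of single spots, in intensity units, for both probes of each member on the control (con) and knockdown (si) arrays; lines mark the mean of 10 spots, and open points were not well above background. Both probes of miR-152 stay clear of zero after knockdown, with 19 and 20 of their spots well above background, while the spots of miR-148a fall to around zero with 0 above it.

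By total signal, miR-152 fell farther than miR-148b. The knockdown signals of miR-148b, 26.3 and 25.7, lay near the highest undetected ones on these arrays, 21.2 and 19.2. All knockdown spots of its first probe were below the threshold for a clear signal. Within an array, the log2 signal of miR-152 minus that of miR-148b was 2.12 on con 1 and 2.13 on con 2, and 1.24 on si 1 and 1.20 on si 2. The arrays of each group lay close together, and the mean of this value, knockdown minus control, differed by -0.90. A factor common to a whole array cancels in this value, while signal added to a probe, such as from another member, does not. Whether such signal was present was not tested. The SD between the replicates of a group was at most 0.16 for either miRNA on the same scale. In pairs of equal replicate number the log2 change was -2.79 and -3.09 for miR-152, -1.91 and -2.16 for miR-148b, and -2.65 and -3.60 for miR-148a. The pairs of miR-148a lay farthest apart, and its knockdown values were not detected.

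The family was then placed among all miRNAs. For this, 20 was added to each total signal, as in the deposited values, the log2 values of all mouse miRNAs were multiplied by 1 factor per array that gives the arrays the same median value (limma's scale method), and the 214 miRNAs with a detection flag on 1 array or more were fitted with the replicate number as a block. The factors of this scaling lay close to 1, from 0.984 to 1.01. They match the median over all 567 mouse miRNAs, most of which were not detected. The total signal at that median was 3.52 and 4.24 in control and 2.15 and 2.19 in knockdown cells. This scaling therefore does not bring the detected miRNAs of the arrays to a common level. Adding 20 keeps low and negative signals on the log scale and shrinks the changes of dim miRNAs. The difference, knockdown minus control, was -2.40 for miR-152 (standard error 0.103), -1.45 for miR-148a (0.110) and -1.31 for miR-148b (0.101). At an adjusted p under 0.05 from limma, all 3 members were lower. In the same fit 165 of the 214 miRNAs were lower, or 77.1%, and 38 were higher, or 17.8%. Lower miRNAs made up 81.3% of the calls, and from 12.7% to 85.3% over 10 treatments of the signal that differ in scaling, background or low signals. The methods of the study name scale normalization to the same median absolute deviation, which these factors do not bring about. With arrays centred on the median of the 130 miRNAs detected on every array and set to one such deviation, 25.2% of the 214 were lower and 44.9% higher, the median was 0.17, and the members were at -0.76 for miR-152, -0.44 for miR-148a and -0.08 for miR-148b. Since the members were chosen on this contrast and most miRNAs were called lower, nothing is read from their count.

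The median difference of the 214 was -1.22. Relative to that median miR-148a was at -0.23, miR-148b at -0.09 and miR-152 at -1.18. By rank from the lowest difference, miR-152 stood at 6, miR-148a at 92 and miR-148b at 99 of 214. miR-152 was thus near the extreme and both miR-148 members near the middle of all miRNAs. Among the 130 detected on every array, which leave out miR-148a, the median was lower, at -1.70, and relative to it miR-148b was at 0.39.

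The place of miR-148a, and less so that of miR-152, depended on how low signals were treated. With no 20 added, signals below 0.5 set to 0.5 and no scaling, the differences were -3.12 for miR-148a, -2.94 for miR-152 and -2.04 for miR-148b, against a median of -2.16 over the 214. miR-148a then stood at rank 23, ahead of miR-152 at 29, and miR-148b at 123. The value of miR-148a comes from knockdown signals that were not detected, so its order against miR-152 was not settled by these arrays. miR-148b kept the smallest fall of the 3 in both treatments.

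**Figure D3:**
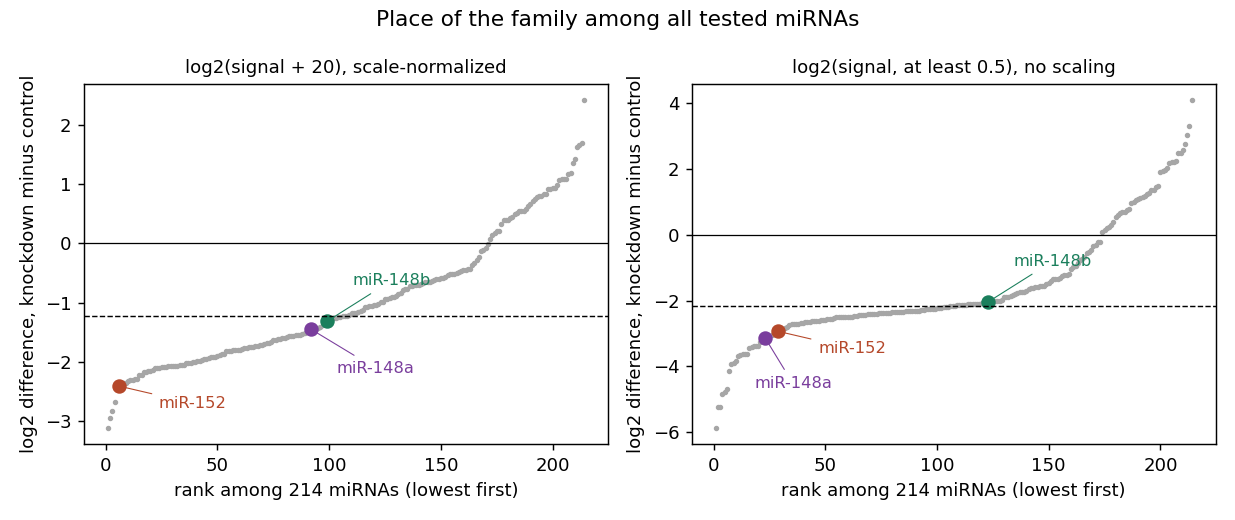
log2 difference, knockdown minus control, of the 214 miRNAs tested, in rank order, with the family in colour and the median as a dashed line: scale-normalized log2(signal + 20) on the left and log2 signal with a floor of 0.5 and no scaling on the right. miR-152 stands at rank 6 and 29, miR-148a at 92 and 23 and miR-148b at 99 and 123.

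The direction of the differences depended on the scaling between arrays. Over 10 treatments of the signal, miR-152 was below zero in 9 and at 1.09 in the other, in which signals with a floor of 0.5 were scale-normalized, the log2 values of the knockdown arrays were multiplied by 1.34 and 1.30 and those of the control arrays by 0.812 and 0.707, and the median of all miRNAs was at 1.90. miR-148b was above zero in that treatment, at 1.09, and with each array's 75th percentile over those 130 miRNAs subtracted, at 0.65. miR-148a was above zero with that centring alone, at 0.53, where the median of the 214 was 0.73. Centred on the positive control probes, miR-152 was at -1.38, miR-148a at -0.37 and miR-148b at -0.25, against a median of -0.17. Relative to the median of all miRNAs the picture was steadier, though in part by construction. miR-152 lay below that median in all 10 treatments, at -0.57 to -1.21, and miR-148a likewise, at -0.21 to -2.69. miR-148b lay below it in 7 and at most 0.13 above it in the others. Subtracting a value per array cannot move these distances. Centring on the 75th percentile or the positive control probes thus left miR-152 at -1.21, its value without scaling or floor. Undetected knockdown signals of miR-148a enter each of its values. The counts are therefore no measure of how firm these places are.

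**Figure D4:**
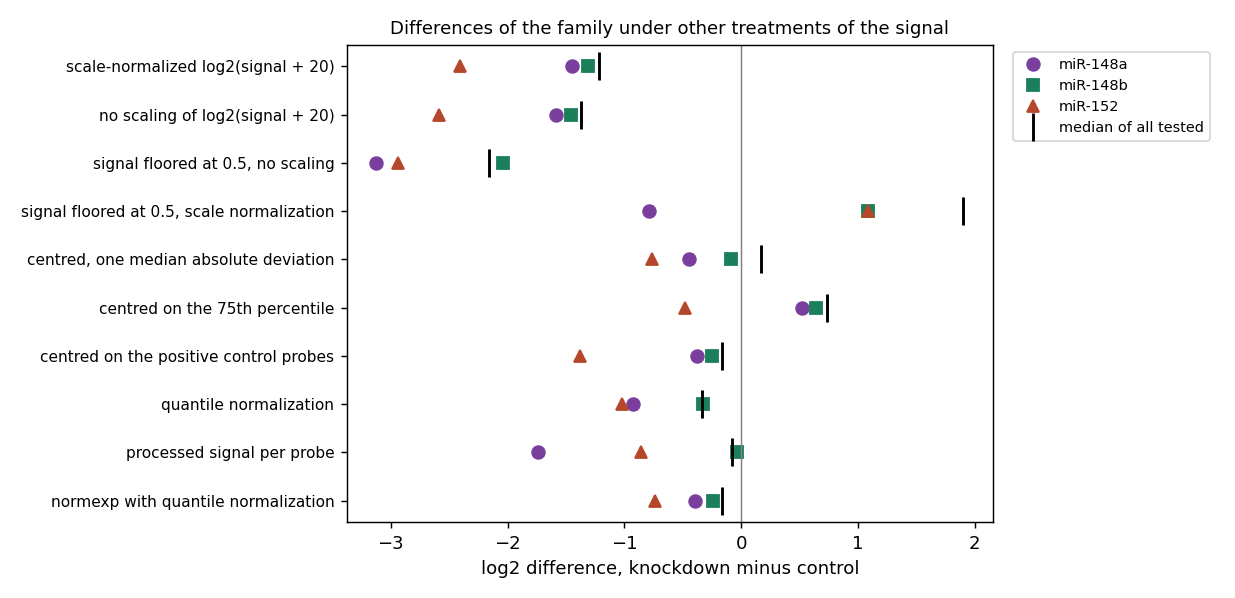
log2 difference, knockdown minus control, of the 3 members and the median of the 214 miRNAs (black strokes) under 10 treatments of the signal, one per line. miR-152 and miR-148a lie to the left of the median on every line, while the position of the zero line against all of them moves with the scaling. Subtracting a value per array leaves the distances to the median unchanged.

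The miRNAs whose profile over the 4 arrays was most like that of each member were found by the Euclidean distance between scale-normalized log2 values, after each miRNA's own mean was subtracted, among 128 other miRNAs detected on every array. The distance between miR-148a and miR-148b was 0.178, and miR-152 lay at 0.959 from miR-148a and at 1.09 from miR-148b. The median distance to the 128 was 0.587 from miR-148a, 0.657 from miR-148b and 0.710 from miR-152. The miR-148 members were thus closer to each other than to most of the 128. miR-152 lay farther from both than from most of the 128. Each member had closer profiles outside the family than within it, but far more miRNAs were searched outside, so nothing is read from this. With 4 arrays in 2 groups the distance mostly reflects the size of the fall.

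Nearest to miR-152 were miR-93 at 0.0626, miR-15b at 0.0689 and miR-338-3p at 0.0917, against a median distance of 0.71. miR-93 belongs to the miR-106b-25 cluster in an intron of Mcm7, a gene of DNA replication. It gave 1004 and 1120 in control and 155.1 and 150.0 in knockdown cells. miR-15b, which shares its seed with miR-16, gave 1166 and 1310 in control and 194.4 and 189.3 in knockdown cells. miR-338-3p, from an intron of Aatk, gave 865.6 and 1077 in control and 153.8 and 137.5 in knockdown cells. These miRNAs fell about as far as miR-152 in the scale-normalized values, at -2.44, -2.36 and -2.37.

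Nearest to miR-148b were miR-30d at 0.0826, miR-500 at 0.105 and miR-146a at 0.110, with differences of -1.38, -1.25 and -1.31. miR-30d, of the miR-30 family, gave 203.0 and 224.8 in control and 59.5 and 60.3 in knockdown cells. miR-146a, known as a feedback repressor of innate immune signalling, gave 203.2 and 233.5 in control and 70.4 and 60.4 in knockdown cells. Nearest to miR-148a were miR-331-3p at 0.0598, miR-342-3p at 0.0905 and miR-140, which is abundant in cartilage, at 0.102, with differences of -1.41, -1.44 and -1.50. These neighbours were detected in knockdown cells, with signals of 19.2 and 15.6, 24.5 and 21.6, and 26.8 and 25.0, whereas miR-148a was not.

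No Hox gene was a spanning or nearest coding gene of any member's hairpin. How far the members lie from the Hox clusters was not measured, and miRNAs of the Hox regions were listed beside them. All 5 that were listed were lower in the scale-normalized fit, where 77.1% of all miRNAs were. Their differences ran from -2.28 for miR-10a to -0.51 for miR-615-3p, with a median of -1.80 against -1.22 over the 214. miR-196b, at -1.14, and miR-615-3p thus fell less than that median in this fit. For miR-615-3p this turned with the treatment of low signals. With a floor of 0.5 and no scaling it was the lowest of the 5, at -3.84 against a median of -2.16. Its knockdown signals were not detected, so its place was not settled. miR-10a gave 362.3 and 429.8 in control and 59.2 and 51.9 in knockdown cells. miR-196b gave 66.7 and 75.5 in control and, undetected, 18.7 and 16.6 in knockdown cells. miR-615-3p gave 7.21 and 7.09 in control and, undetected, -1.57 and -2.90 in knockdown cells.

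A list of 11 miRNAs known to act on messages of DNA methyltransferases, EZH2 or histone deacetylases was set beside the family for its DNMT1 link. All 11 were on the array, 9 entered the fit and all 9 were lower, again beside 77.1% of all miRNAs, with a median of -1.88. This list was shortened by 1 miRNA after its values were seen, so its count and median are a description only. The lowest was miR-29b, which represses DNMT3A and DNMT3B in human cells, at -2.21, with signals of 3385 and 3692 in control and 639.8 and 610.4 in knockdown cells. The highest was miR-1, a muscle miRNA that represses HDAC4 in mouse, at -0.71, with 1125 and 1370 in control and 617.5 and 656.9 in knockdown cells. miR-143 and miR-449a were detected on no array. By this measure miR-152, at -2.40, lay beyond the lowest of the 9, while miR-148a and miR-148b, at -1.45 and -1.31, lay within their range. For miR-148a this turned with the treatment of low signals. With a floor of 0.5 and no scaling the 9 ran from -2.70, for miR-101a, to -0.96. miR-148a, at -3.12, and miR-152, at -2.94, then lay beyond the lowest, and miR-148b, at -2.04, within. miR-101a and miR-148a were undetected after knockdown, so these places were not settled. The target messages were not measured.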

How the data were processed

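The authors scanned the arrays and obtained signals with Agilent Feature Extraction 10.1.1.1. The files, as deposited, hold background-subtracted intensity per spot and, per miRNA, a total signal with an error and a detection flag, and each value deposited for the series is that total with 20 added and no scaling. The members and lists were chosen with earlier results of these data known, as was the main treatment of the signal. It used limma's scale method on log2 values, which sets 1 factor per array, limma's linear model with empirical Bayes and the allowance for paired samples that the methods name, and Benjamini-Hochberg adjustment at 0.05 (limma 3.58.1, R 4.3.3). The methods state scaling to the same median absolute deviation and no added constant, so the main treatment departs from them, and a setting with that deviation is an alternative. Their filter drops miRNAs not detected for all samples, which can mean on none or not on every array. Detection on at least 1 array was used here, with every array as an alternative. An earlier setting, scale normalization of signals with a floor of 0.5, was kept only as an alternative, since it multiplies log2 values of the arrays by unequal factors. The block leaves 1 residual degree of freedom, and the pairing rests on the methods: deviations of same-numbered arrays had a correlation of -0.387 over 130 miRNAs. Named were the members, miR-148a*, the 3 nearest profiles of each and the extremes of both lists. Alternatives were other scalings, floors, filters and background correction, no block and each array left out. One miRNA of the list of chromatin enzymes was taken off it after its values were seen, because what it is known to act on is not reported here. The Hox-region name miR-615 was read as miR-615-3p, the detected arm, also after its values were seen. The fit was tested on simulated data. With so few arrays the precision is limited.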

Additional observations from a re-analysis of the deposited data

How the results depend on the processing

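Of the 214 miRNAs tested, 77.1% were lower and 17.8% higher in the main treatment. These shares turned with the scaling: they were 8.88% and 61.2% with a floor of 0.5 and scale normalization, 25.2% and 44.9% with one median absolute deviation, 9.81% and 65.4% with the 75th percentile, 48.6% and 36.9% with the positive control probes, 48.1% and 23.8% with quantile normalization, and 25.2% and 31.3% with the processed signal per probe. With detection on every array they were 85.4% and 10.8% of 130, and with no detection filter 31.0% and 9.17% of 567. Centring on detected miRNAs removes a common fall by construction, and the filters change how many miRNAs are tested. The other causes were not tested.

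The median over all tested miRNAs, -1.22, was 1.90 with the floor and scale normalization, 0.17 with one median absolute deviation, 0.73 with the 75th percentile and 0.012 with no detection filter. In the first of these miR-148b and miR-152 turned to 1.09, and with the 75th percentile miR-148b was at 0.65 and miR-148a at 0.53. How many settings called the members lower is not read, since the members were chosen on this contrast. The value of miR-148a with its knockdown signals at the highest undetected signal, a setting added after the data were seen, was -0.88.

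The difference of miR-152 minus the mean of those of miR-148a and miR-148b was -1.02 in the main treatment. It was -1.06 with no scaling and with centring on the 75th percentile or the positive control probes, -0.36 with the floor and no scaling, -0.50 with one median absolute deviation, -0.40 with quantile normalization and -0.41 with normexp. It turned to 0.94 with the floor and scale normalization and to 0.029 with the processed signal per probe. Undetected knockdown signals of miR-148a enter each of these. miR-152 minus miR-148b alone was negative in 17 of 18 settings, the main one included, from -1.12, and 0.0010 in the other. Several of these settings could not move this value. The filters and the block left it at the -1.09 of the main treatment. Centring on the 75th percentile or the positive control probes left it at the -1.12 of no scaling. The count is therefore no measure of how firm the difference is.

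With each array left out in turn, one group is left with a single array. The difference of miR-152 minus the mean of those of miR-148a and miR-148b was then -1.05 to -1.01. The differences of all 3 members stayed below zero in each. Without the replicate block 164 miRNAs were lower and 39 higher, or 76.6% and 18.2%. With crossed replicate numbers, added after the data were seen, these were 164 and 40. The deposited table gave the values of the main treatment.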
